A study of Mus musculus with 4 samples.

Results

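The chemokine axes of CXCR3, CXCR4 and CXCR6 were followed in stromal and T cells sorted from *Bcr-Abl*+ tumors grown in Wt or *Sipa1*-/- hosts. The genes were chosen by their place in the axes, with earlier results of these data known, so the counts below describe these genes and are no test. They were 9 of the 22911 genes with a symbol on the array. The CXCR3 axis held the ligands *Cxcl9*, *Cxcl10* and *Cxcl11* and the receptor *Cxcr3*. The CXCL12 axis held *Cxcl12* and its receptors *Cxcr4* and *Ackr3*, and the CXCL16 axis held *Cxcl16* and *Cxcr6*. Together 8 of the 9 genes were reached by 12 probes. *Cxcl11*, which the RefSeq table used for naming lists as a transcribed pseudogene, was reached by no probe through that table and was not analysed here.

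There were 4 one-color arrays and 4 groups, each with 1 array: MSCs of Wt mice, MSCs of *Sipa1*-/- mice, CD8+ T cells of Wt mice and CD8+ T cells of *Sipa1*-/- mice. *Sipa1* encodes a GTPase-activating protein that switches off Rap1, and the *Sipa1*-/- mice lack it in every cell, the sorted T cells included. Per the labels the mice were C57BL/6Ncr, 8 weeks old and 5 per genotype, and each had received 15000 GFP+ *Bcr-Abl*+ hematopoietic progenitors in Matrigel under the skin, with tumors taken at day 12. MSCs (mesenchymal stroma cells) were the GFP- CD45- Ter119- CD31- cells, a gate of absent markers with no mesenchymal one, and CD8+ T cells were the GFP- TCRb+ CD8+ cells. The tumor cells were Wt in both hosts, and how the mice were pooled for an array was not given in the sources used here. All 4 arrays lay on 1 slide in 1 scan. With 1 array per group no difference has a replicate check, so no test was run, no p-value is given, and every ratio compares 2 arrays. The error printed after a ratio is that of the scanner software for the spots behind it and covers neither mice nor sorts. In bulk samples, fewer cells of a type and less RNA per cell cannot be told apart.

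CXCL9 and CXCL10 are secreted chemokines that interferon-gamma induces in stromal and myeloid cells, and they draw CXCR3+ effector and memory T cells into inflamed tissue and tumors. CXCL12 is made by mesenchymal stroma, where it holds hematopoietic progenitors and developing B cells through CXCR4, and ACKR3 is an atypical receptor that binds and removes CXCL12. CXCL16 is made as a membrane protein that ADAM10 and ADAM17 can release, and its receptor CXCR6 marks effector and tissue-resident T cells.

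Promoter sequence is shown for the CXCR3 ligands, which are neighbors on chromosome 5 and are known for control by interferon, for *Cxcr3*, a known target of T-bet, and for *Cxcl12* and *Ackr3*, whose signals had the same order over the 4 arrays. The RefSeq promoter table (GRCm38.p6) held 7 of the 9 genes, and *Cxcl11* and *Cxcl16* had no entry. Each line gives the 250 bases before the annotated start, 5′ to 3′ on the strand of the gene, at chr5:92328080-92328329 (minus strand), chr5:92348890-92349139 (minus strand), chrX:101734148-101734397 (minus strand), chr6:117168285-117168534 (plus strand) and chr1:90203730-90203979 (plus strand). Capitals mark matches, on either strand, to GAAANNGAA (interferon-stimulated response element type), TTCNNNGAA (gamma-activated site type), GGGANTTCC (kappa-B type) or TCACAC (T-box half-site).
*Cxcl9*: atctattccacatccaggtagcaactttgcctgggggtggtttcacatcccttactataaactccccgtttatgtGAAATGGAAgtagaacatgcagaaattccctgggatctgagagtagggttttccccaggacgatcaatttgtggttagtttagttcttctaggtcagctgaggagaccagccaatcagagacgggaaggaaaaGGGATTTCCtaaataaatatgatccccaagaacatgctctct
*Cxcl10*: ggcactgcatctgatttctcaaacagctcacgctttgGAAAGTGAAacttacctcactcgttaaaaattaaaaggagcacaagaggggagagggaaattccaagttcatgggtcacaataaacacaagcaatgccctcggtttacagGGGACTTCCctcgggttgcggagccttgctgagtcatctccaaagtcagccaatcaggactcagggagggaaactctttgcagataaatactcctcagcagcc
*Cxcr3*: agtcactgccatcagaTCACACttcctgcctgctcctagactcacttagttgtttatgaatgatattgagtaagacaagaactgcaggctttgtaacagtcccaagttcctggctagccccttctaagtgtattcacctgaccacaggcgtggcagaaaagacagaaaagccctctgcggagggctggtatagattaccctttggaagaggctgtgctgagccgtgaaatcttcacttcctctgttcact
*Cxcl12*: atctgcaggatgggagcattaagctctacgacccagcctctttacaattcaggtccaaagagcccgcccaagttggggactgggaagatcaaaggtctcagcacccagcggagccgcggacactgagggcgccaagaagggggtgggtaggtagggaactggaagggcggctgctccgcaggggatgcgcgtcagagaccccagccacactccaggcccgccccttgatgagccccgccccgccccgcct
*Ackr3*: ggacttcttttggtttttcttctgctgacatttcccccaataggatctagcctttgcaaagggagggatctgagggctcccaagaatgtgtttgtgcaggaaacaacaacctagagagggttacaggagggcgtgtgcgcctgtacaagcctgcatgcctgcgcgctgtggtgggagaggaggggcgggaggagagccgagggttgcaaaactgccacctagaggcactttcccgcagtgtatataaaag

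The starts of *Cxcl9* and *Cxcl10* lie 20810 bases apart on the same strand. Both held a match to the response element letters and a kappa-B match, and neither held the gamma-activated site letters in this window. *Cxcl9* had GAAATGGAA from 175 to 167 bases before its start and GGGATTTCC from 42 to 34. *Cxcl10* had GAAAGTGAA from 213 to 205 bases before its start and GGGACTTCC from 103 to 95. *Cxcr3* held TCACAC from 234 to 229 bases before its start. In windows of the same length before 32851 annotated starts, GAAANNGAA stood in 7.13%, TTCNNNGAA in 7.02%, GGGANTTCC in 1.43% and TCACAC in 12.3%. No matches overlapped in the printed windows. *Cxcl12*, *Ackr3*, *Cxcr4* and *Cxcr6* had none of the 4 motifs in the window, which says only that these letters are absent there.

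Values below are log2 of the background-corrected spot intensity minus the 75th percentile of the array, so that 0 is the signal of a spot at that percentile. Spots well above background made up 60.3% to 65.3% of an array. No spot was saturated, and all 12 probes of the axis genes passed every quality flag on all 4 arrays. As a check of the labels, both *Sipa1* probes were lower on the *Sipa1*-/- arrays, with a log2 ratio for the gene of -1.42 ± 0.14 between the MSC arrays and of -1.86 ± 0.14 between the CD8+ T arrays, and both stayed well above background there. Where these probes lie relative to the deleted part of *Sipa1* was not examined.

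The first comparison asks how the axis genes differed between *Sipa1*-/- and Wt MSCs. Of the 8 measured genes, 7 were at least 2-fold higher on the *Sipa1*-/- array and 1, *Cxcr4*, was lower by at least 2-fold. Among all 15298 genes measured on both MSC arrays, 19.3% were past 2-fold upward and 11.3% downward. The median log2 ratio of the 8 genes was 1.39, and that of all genes was 0.04.

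*Cxcl9*, the first of the CXCR3 ligands, had the highest MSC ratio of the axes. Its signal was 2.33 in Wt MSCs, 4.58 in *Sipa1*-/- MSCs, 2.18 in Wt CD8+ T cells and 2.74 in *Sipa1*-/- CD8+ T cells. The *Sipa1*-/- MSC array thus stood alone at the top, while Wt MSCs and Wt CD8+ T cells lay 0.15 apart, within the software error of 0.20. On the intensity scale the *Cxcl9* spot read 2371 in Wt MSCs and 10986 in *Sipa1*-/- MSCs, which were 94.8 and 423 times its local background. The MSC log2 ratio was 2.25 ± 0.20, or 4.76-fold, and 98.1% of genes had a lower ratio.

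*Cxcl10*, the neighboring ligand, read 2.46 in Wt MSCs, 3.77 in *Sipa1*-/- MSCs, 2.17 in Wt CD8+ T cells and 1.61 in *Sipa1*-/- CD8+ T cells. The *Sipa1*-/- array was the highest of the 4 in MSCs and the lowest of the 4 in CD8+ T cells. Its MSC log2 ratio was 1.31 ± 0.20, or 2.48-fold, above that of 86.4% of genes. Between the CD8+ T arrays its ratio was -0.55 ± 0.20, short of 2-fold, and 3.39% of genes had a lower ratio. *Cxcl9* in CD8+ T cells was at 0.56 ± 0.20, so the neighbors had opposite signs there under each of the 8 processing alternatives as well, with ranges of 0.41 to 0.69 for *Cxcl9* and -0.70 to -0.42 for *Cxcl10*.

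*Cxcr3*, the receptor of both ligands, was a CD8+ T cell transcript. It read 5.16 in Wt and 5.08 in *Sipa1*-/- CD8+ T cells, and -2.87 in Wt and -1.83 in *Sipa1*-/- MSCs. The CD8+ T arrays did not differ beyond the software error, at a log2 ratio of -0.07 ± 0.20, whose sign turned under quantile normalization (0.01) and the series matrix values (0.06). The MSC ratio was 1.04 ± 0.21 at 3.07 and 6.15 times local background, and it was under 2-fold after another background correction (normexp, 0.55), under median shift (0.90) and under quantile normalization (0.97).

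**Figure D1:**
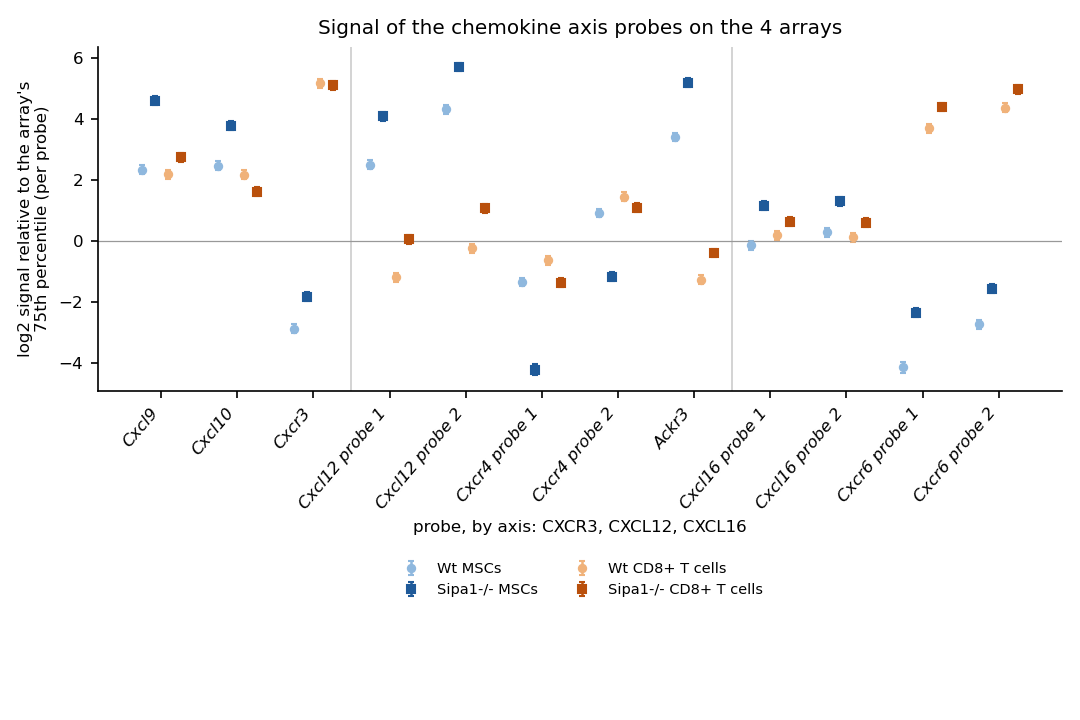
Log2 signal relative to the 75th percentile of the array (vertical axis) for each of the 12 probes (horizontal axis), with Wt as circles and *Sipa1*-/- as squares, MSCs in blue and CD8+ T cells in orange, and bars for the software error of the spot. *Cxcr3* and *Cxcr6* sat higher on both CD8+ T arrays than on both MSC arrays, and the *Sipa1*-/- MSC array was the highest for *Cxcl9*, *Cxcl10*, *Cxcl12*, *Ackr3* and *Cxcl16* and the lowest for *Cxcr4*.

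*Cxcl12*, the ligand of the second axis, was higher on the *Sipa1*-/- array in both sorts. Its probe A_55_P1966204 read 4.31 in Wt MSCs, 5.69 in *Sipa1*-/- MSCs, -0.24 in Wt CD8+ T cells and 1.06 in *Sipa1*-/- CD8+ T cells. Its probe A_51_P172502, designed on another transcript of the gene, read 2.50, 4.08, -1.19 and 0.05 in the same order. Both probes put the arrays in 1 order, and every step was larger than the software error. The gene's log2 ratio was 1.48 ± 0.14 in MSCs, or 2.79-fold, and 1.27 ± 0.14 in CD8+ T cells, or 2.41-fold.

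*Ackr3*, the scavenging receptor for CXCL12, followed the same order with 3.40 in Wt MSCs, 5.18 in *Sipa1*-/- MSCs, -1.28 in Wt CD8+ T cells and -0.40 in *Sipa1*-/- CD8+ T cells. Both MSC arrays lay above both CD8+ T arrays. The MSC log2 ratio was 1.78 ± 0.20, or 3.44-fold, above 94.1% of genes, and the CD8+ T ratio was 0.88 ± 0.20.

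*Cxcr4*, the signaling receptor for CXCL12, was the one axis gene lower in *Sipa1*-/- MSCs. Probe A_52_P585124 read 0.91 in Wt MSCs, -1.18 in *Sipa1*-/- MSCs, 1.44 in Wt CD8+ T cells and 1.09 in *Sipa1*-/- CD8+ T cells. Probe A_55_P2745744 read -1.35, -4.22, -0.64 and -1.37 in the same order, and was only 1.12 times local background on the *Sipa1*-/- MSC array. For both probes that array was the lowest and the Wt CD8+ T array the highest, while Wt MSCs and *Sipa1*-/- CD8+ T cells lay within the error of each other. The gene's MSC log2 ratio was -2.48 ± 0.15, or 5.58-fold lower, and 1.95% of genes had a lower ratio. The probes gave -2.09 and -2.87 on their own, and normexp gave -1.64 for the gene. The CD8+ T ratio was -0.54 ± 0.14.

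Between the MSC arrays, transcripts of B-lineage cells, which carry CXCR4, moved in the same direction as the *Cxcr4* signal. All 11 measured B-lineage markers, of 12 listed, were at least 2-fold lower in *Sipa1*-/- MSCs, against 11.3% of all genes. Their median log2 ratio was -4.16, and their summed level was 687 times the 75th-percentile signal in Wt and 42.6 times in *Sipa1*-/- MSCs. *Vpreb1*, a surrogate light chain of the pre-B receptor, went from 7.57 to 3.45. Of 12 common leukocyte genes 10 (83.3%, against 11.3% of all genes) were at least 2-fold lower, with a median of -1.69. *Ptprc*, which encodes the CD45 used to gate these cells out, read 0.76 in Wt and -0.55 in *Sipa1*-/- MSCs. The *Cxcr4* ratio was 1.68 above the B-lineage median and 0.79 below the leukocyte one (difference of -0.79). For MSCs over CD8+ T cells the *Cxcr4* ratio differed from the B-lineage median by -4.90 in Wt and -2.65 in *Sipa1*-/- tumors. From the leukocyte median it differed by 1.57 and 1.18. The part of these cells in the *Cxcr4* ratio was not tested.

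Fibroblast markers moved with *Cxcl12* and *Ackr3* in both sorts. In MSCs all 12 measured fibroblast markers, of 14 listed, lay above 0, with a median of 1.59, and 51.7% of all genes did. Of these markers 8 (66.7%, against 19.3% of all genes) were at least 2-fold higher. *Pdgfrb*, a receptor of mesenchymal cells, had a ratio of 2.02. *Pdgfra* read 3.01 in Wt and 4.52 in *Sipa1*-/- MSCs but failed a quality flag on both MSC arrays. The *Cxcl12* ratio differed from the fibroblast median by -0.11 and the *Ackr3* ratio by 0.19. For *Cxcl9* and *Cxcl10* the MSC differences were 0.66 and -0.28. Between the CD8+ T arrays 13 of 14 fibroblast markers (92.9%, against 2.66% of all genes) were at least 2-fold higher on the *Sipa1*-/- array, with a median of 1.68. The *Cxcl12* and *Ackr3* ratios differed from that median by -0.41 and -0.80, and the *Cxcl9* and *Cxcl10* ratios by -1.12 and -2.23. For MSCs over CD8+ T cells in Wt tumors, differences from the fibroblast median were -0.55 (*Cxcl12*), 0.01 (*Ackr3*), -4.52 (*Cxcl9*) and -4.37 (*Cxcl10*). In *Sipa1*-/- tumors they were -0.41, 0.84, -2.89 and -2.58. The summed level of the fibroblast list was 1059 and 1855 in Wt and *Sipa1*-/- MSCs and 209 and 312 in Wt and *Sipa1*-/- CD8+ T cells, a list that includes *Thy1*, which T cells express too. The part of fibroblast RNA in the *Cxcl12*, *Ackr3*, *Cxcl9* and *Cxcl10* ratios was not tested.

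*Cxcl16*, the membrane-bound ligand of the third axis, was found in both sorts. Probe A_52_P99888 read -0.15 in Wt MSCs, 1.15 in *Sipa1*-/- MSCs, 0.18 in Wt CD8+ T cells and 0.62 in *Sipa1*-/- CD8+ T cells, and probe A_51_P374198 read 0.28, 1.30, 0.11 and 0.59. The *Sipa1*-/- MSC array was highest for both, and the probes disagreed on whether Wt MSCs or Wt CD8+ T cells were lowest. The gene's log2 ratio was 1.16 ± 0.14 in MSCs, or 2.24-fold, and 0.46 ± 0.14 in CD8+ T cells. Macrophages and dendritic cells also make CXCL16, CXCL9 and CXCL10. Of their 13 measured markers 6 (46.2%, against 19.3% of all genes) were at least 2-fold higher in *Sipa1*-/- MSCs. Their median ratio was 0.99, at a summed level of 10.4 in Wt and 14.3 in *Sipa1*-/- MSCs. For CD8+ T cells the median of the 14 markers was 0.23, at summed levels of 33.8 and 28.8. The part of these cells in the ligand ratios was not tested.

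*Cxcr6*, the CXCL16 receptor, was likewise higher in CD8+ T cells than in MSCs. Probe A_55_P1962209 read -2.73 in Wt MSCs, -1.57 in *Sipa1*-/- MSCs, 4.35 in Wt CD8+ T cells and 4.96 in *Sipa1*-/- CD8+ T cells, and probe A_51_P412027 read -4.14, -2.35, 3.68 and 4.38. Both probes gave the *Sipa1*-/- array the higher signal in each sort. The CD8+ T log2 ratio was 0.66 ± 0.14, or 1.58-fold, with 94.5% of genes lower, and did not reach 2-fold. The MSC ratio was 1.47 ± 0.15, or 2.78-fold, and 0.79 after normexp, and A_51_P412027 was 1.16 times local background on the Wt MSC array.

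In CD8+ T cells, 1 of the 8 measured axis genes, *Cxcl12*, was at least 2-fold higher on the *Sipa1*-/- array and none was at least 2-fold lower. Of all 14339 genes measured there, 2.66% passed 2-fold upward and 1.4% downward. The median log2 ratio of the 8 genes was 0.51 against -0.02 for all genes. The receptors for which CD8+ T cells are known lay at 0.66 (*Cxcr6*), -0.07 (*Cxcr3*) and -0.54 (*Cxcr4*), while the CD8+ T cell markers had a median of 0.01 over 13 genes, with *Cd8a* at 0.11 and *Cd3e* at 0.16.

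**Figure D2:**
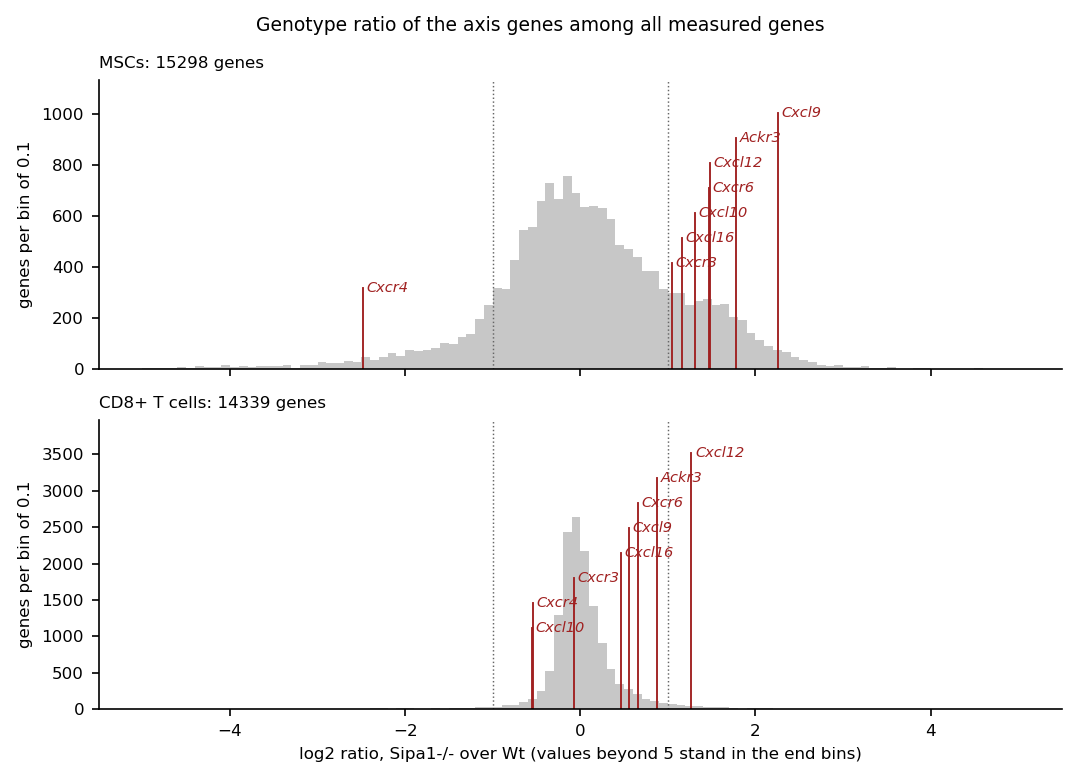
Histograms of the log2 ratio of *Sipa1*-/- over Wt (horizontal axis, bins of 0.1) for all measured genes, as genes per bin (vertical axis), in MSCs above and CD8+ T cells below, with red lines at the axis genes (the line height carries no value) and dotted lines at 2-fold. In MSCs 7 lines stand past 2-fold on the right and *Cxcr4* on the left, and in CD8+ T cells *Cxcl12* at 1.27 stands past 2-fold.

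The genotype ratios in the 2 sorts can be set side by side, without a test of their difference. The MSC ratio minus the CD8+ T ratio was 1.86 ± 0.29 for *Cxcl10*, 1.69 ± 0.29 for *Cxcl9* and 1.11 ± 0.29 for *Cxcr3*. It was 0.90 ± 0.29 for *Ackr3*, 0.82 ± 0.21 for *Cxcr6* and 0.70 ± 0.20 for *Cxcl16*. For *Cxcl12* it was 0.21 ± 0.20, and for *Cxcr4* it was -1.94 ± 0.21.

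The second comparison asks which sort carried ligand and which receptor. In Wt tumors MSCs carried the higher signal, by 2-fold or more, for 2 of the 8 genes and CD8+ T cells for 2, against 17.3% and 12.8% of all 14225 genes. *Ackr3* lay 25.6-fold and *Cxcl12* 17.3-fold higher in MSCs, and *Cxcr3* lay 261-fold and *Cxcr6* 175-fold higher in CD8+ T cells. The interferon-inducible ligands lay within 2-fold between the Wt sorts. *Cxcl9* had a log2 ratio of MSCs over CD8+ T cells of 0.15 ± 0.20, inside the software error, which turned to -0.08 under median shift. *Cxcl10* was higher in MSCs at 0.29 ± 0.20, beyond that error, and ran from 0.06 to 0.75 over the alternatives. *Cxcl16* was at -0.08 ± 0.14 and turned sign under the series matrix values (0.37) and with the brightest probe (0.17).

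In *Sipa1*-/- tumors MSCs were higher by 2-fold or more for 4 of the 8 genes and CD8+ T cells for 3, against 21.9% and 18.7% of all 14301 genes. *Cxcl10* was then 4.46-fold and *Cxcl9* 3.58-fold higher in MSCs, next to *Ackr3* at 47.8-fold and *Cxcl12* at 20.1-fold. *Cxcr4* was 5.89-fold higher in CD8+ T cells, compared with 1.53-fold in Wt tumors. *Cxcr3* and *Cxcr6* were 121-fold and 99.3-fold higher in CD8+ T cells. *Cxcl16* had a log2 ratio of 0.62 ± 0.14, higher in MSCs beyond the software error, and passed 2-fold with the series matrix values (1.15).

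**Figure D3:**
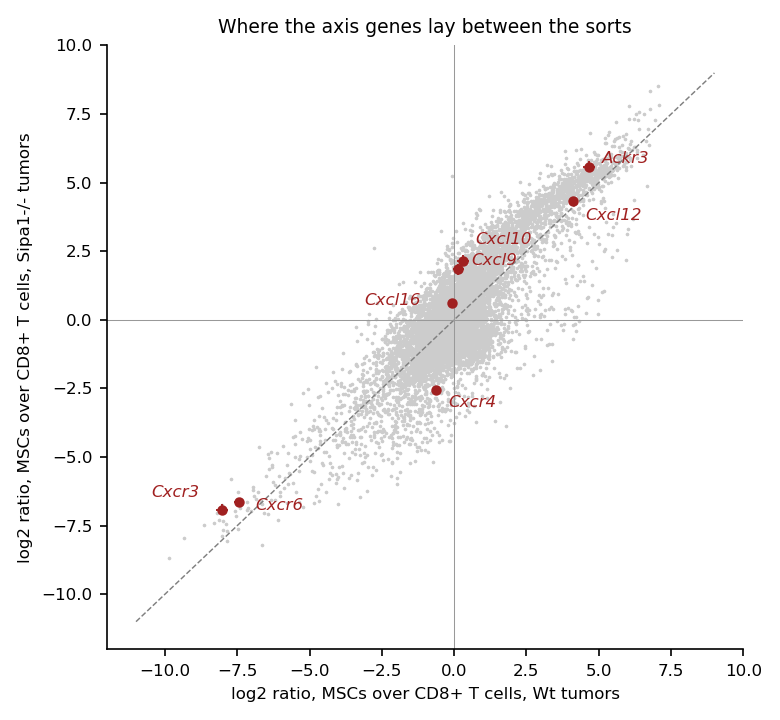
Log2 ratio of MSCs over CD8+ T cells in Wt tumors (horizontal axis) and in *Sipa1*-/- tumors (vertical axis), with grey points for all genes measured in both, red points with software error bars for the axis genes and a dashed line of equal ratios. The 8 measured genes are shown, with *Ackr3* and *Cxcl12* at the upper right, *Cxcr3* and *Cxcr6* at the lower left, *Cxcl9* and *Cxcl10* above the line near 0 on the horizontal axis, and *Cxcr4* below it.

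The receptor signals in the MSC sort lay within the range of T cell markers there. The log2 ratio of MSCs over CD8+ T cells in Wt tumors was -8.03 for *Cxcr3* and -7.45 for *Cxcr6*, and the 12 measured CD8+ T cell markers ran from -9.85 to -2.19 with a median of -7.29. By genotype the same markers split in MSCs, with 4 of 12 (33.3%) past 2-fold upward and 4 (33.3%) downward. The shares of all genes were 19.3% and 11.3%. The median of the markers was 0.67, next to 1.04 for *Cxcr3* and 1.47 for *Cxcr6*. Parts of the T cell receptor complex or co-receptor were at 1.43 (*Cd3g*), 1.31 (*Cd8b1*), 1.10 (*Cd3d*) and 0.66 (*Cd3e*). *Cd8a* was not measured in this pair, since it passed the flags on the *Sipa1*-/- MSC array but not on the Wt one. The 4 lower genes were *Cd2* (-3.52) and *Lat* (-2.69), which other leukocytes also express, and the T cell receptor kinases *Zap70* (-1.59) and *Lck* (-1.07). The summed level of the list was 21.9 in Wt and 5.25 in *Sipa1*-/- MSCs against 653 and 691 in CD8+ T cells. *Cd2*, at 4.08 in Wt and 0.56 in *Sipa1*-/- MSCs, had the highest signal of the list there and weighed most in the MSC sums. By ratio 8 of the 12 measured markers were higher and 4 lower in *Sipa1*-/- MSCs, and 51.7% of all genes were higher. The part of T cell RNA in the MSC ratios of *Cxcr3* and *Cxcr6* was not tested.

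The genes with the most similar course over the 4 arrays were found by the Euclidean distance between log2 signals centered on each gene's own mean, among 12845 genes that passed the flags on all 4 arrays. For *Ackr3* they were *Vasn* (distance 0.05), *Sgce* (0.12) and *Steap1* (0.13). For *Cxcl12* they were *Inhbb* (0.16), *Mmp11* (0.17) and *Hspa12a* (0.17), and for *Cxcl16* they were *Spx* (0.05), *Sntb2* (0.10) and *Nradd* (0.11). *Cxcr3* and *Cxcr6* had T cell genes nearest. *Xcl1*, a chemokine of activated CD8+ T cells, and *Crtam* lay 0.15 from *Cxcr3*, and *Ms4a4b* 0.30. *Ifng* lay 0.30 from *Cxcr6*, with *Gzmb*, which encodes the cytotoxic protease granzyme B, at 0.46 and *Cd6* at 0.49. *Cxcl9* had *Morn4* (0.14), *Sall2* (0.19) and *Shroom1* (0.21), *Cxcl10* had *Gp1bb* (0.14), *Lif* (0.15) and *Il18* (0.18), and *Cxcr4* had *Armc3* (0.13), *Mgst2* (0.28) and *Ppp3cc* (0.29). With 4 points per gene these are descriptions only.

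Interferon-gamma, the inducer of the CXCR3 ligands, was read from CD8+ T cells. *Ifng* was at 3.98 in Wt and 4.85 in *Sipa1*-/- CD8+ T cells, and at -3.19 and -2.09 in MSCs, a genotype log2 ratio of 0.87 and 1.10. Of the 10 genes of the interferon-gamma pathway 2 (20%, near the 19.3% of all genes) were at least 2-fold higher in *Sipa1*-/- MSCs, *Ifng* itself and the feedback inhibitor *Socs3* (1.04), and none was at least 2-fold lower, with a median of 0.50. The transcription factor *Irf1*, through which the signal passes, was at 0.50 in MSCs, and *Irf8*, which B cells and myeloid cells express, was lowest at -0.77. Between the CD8+ T arrays none of the 10 reached 2-fold, against 2.66% of all genes upward and 1.4% downward. The median was 0.12, with *Irf1* at 0.02, a sign that turned under median shift (-0.13).

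Other genes that interferon-gamma induces lay on both sides of 0 in MSCs. Of 23 measured genes 7 (30.4%, against 19.3% of all genes) passed 2-fold upward and 2 (8.7%, against 11.3%) downward, with a median of 0.34 against 0.04 for all genes. The highest were *Ubd* (1.66) and *Gbp6* (1.60), a ubiquitin-like protein and a guanylate-binding protein, and the lowest were *Gbp7* (-1.59) and *Nlrc5* (-1.37). On the CD8+ T arrays 21 of the 23 lay above 0, against 46.1% of all genes, with a median of 0.26. The 2 at least 2-fold higher (8.7%, against 2.66% of all genes) were *Serping1* (1.63) and *Ubd* (1.13). In Wt tumors both were higher in MSCs than in CD8+ T cells, at log2 ratios of 5.00 and 1.10. The part of fibroblast RNA in their CD8+ T ratios was not tested.

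Among 11 measured ligands outside the 3 axes that attract T cells, 5 (45.5%) passed 2-fold upward and 1 (9.09%) downward in *Sipa1*-/- MSCs. Of all genes 19.3% and 11.3% did, and the median of the list was 0.65. *Cx3cl1*, the membrane-bound ligand of CX3CR1, was highest at 2.64, from -0.83 to 1.80, and *Ccl17*, a ligand of CCR4, followed at 1.90. *Ccl25* (-1.34) and *Ccl19* (-0.56), ligands of CCR9 and CCR7, were lowest. On the CD8+ T side *Ccl1* was at 2.66 and *Cx3cl1* at 1.63, the 2 genes of 11 past 2-fold (18.2%, against 2.66% of all genes upward). *Cx3cl1* was higher in MSCs than in CD8+ T cells of Wt tumors, at a log2 ratio of 2.80. The part of fibroblast RNA in its CD8+ T ratio was not tested. Of 7 measured CXC ligands outside the axes, 2 (28.6%, against 19.3% of all genes) were at least 2-fold higher in MSCs and none lower, with a median of 0.36. *Cxcl1* and *Cxcl5*, which attract neutrophils, were the 2 past 2-fold. None of 5 reached 2-fold in CD8+ T cells, against 2.66% of all genes upward and 1.4% downward.

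The other chemokine receptors showed no common direction in MSCs. Of 14 measured receptors 4 (28.6%) passed 2-fold upward and 2 (14.3%) downward, against 19.3% and 11.3% of all genes, with a median of 0.14. *Ackr2* (2.13) and *Ackr4* (1.38), atypical receptors that remove chemokine as *Ackr3* does, were highest. *Cxcr5* (-3.67) and *Ccr7* (-1.52), receptors of B cells and of naive lymphocytes, were lowest. Among the CD8+ T ratios *Xcr1* (2.12) and *Ccr3* (1.79) were highest, *Cxcr1* (-2.07) and *Cxcr2* (-1.93), receptors of neutrophils, were lowest, and the median of 15 was 0.21. *Ccr3* was dim, from -4.67 to -2.88, and the dimmest spot well above background on the Wt CD8+ T array stood at -5.56. Of 11 granulocyte markers 8 (72.7%, against 1.4% of all genes) were at least 2-fold lower on the *Sipa1*-/- CD8+ T array, with a median of -1.27. The part of granulocyte RNA in the *Cxcr1* and *Cxcr2* ratios was not tested.

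Enzymes that cut or release these ligands were uneven. In MSCs 4 of 8 (50%) passed 2-fold upward and 1 (12.5%) downward, against 19.3% and 11.3% of all genes, with a median of 1.04. *Mmp2* (2.01) and *Mmp14* (1.86), matrix proteases that can cleave CXCL12, were highest. *Elane* (1.57), also among the granulocyte markers, and *Ctsg* (1.44) were past 2-fold upward too. The granulocyte list had a summed level of 737 in Wt and 829 in *Sipa1*-/- MSCs, and the erythroid list 615 and 659. The part of granulocyte RNA in the *Elane* and *Ctsg* ratios was not tested. *Dpp4*, a peptidase that trims CXCL9, CXCL10 and CXCL12, was at -1.19, from 0.41 in Wt to -0.78 in *Sipa1*-/- MSCs. The sheddases of CXCL16 stayed within 2-fold, with *Adam10* at -0.44 and *Adam17* at 0.64. Of the 7 measured in CD8+ T cells 2 (28.6%, against 2.66% of all genes), *Mmp2* (2.23) and *Mmp14* (1.35), passed 2-fold upward. *Mmp9* (-1.43), also among the granulocyte markers, was the 1 past 2-fold downward (14.3%, against 1.4%), and the median was 0.04. In Wt tumors *Mmp2* and *Mmp14* were higher in MSCs than in CD8+ T cells, at log2 ratios of 5.82 and 4.23. The part of fibroblast RNA in their CD8+ T ratios was not tested. In CD8+ T cells *Dpp4*, *Adam10* and *Adam17* were at -0.02, 0.01 and 0.08, and each turned sign under at least 1 other processing.

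**Figure D4:**
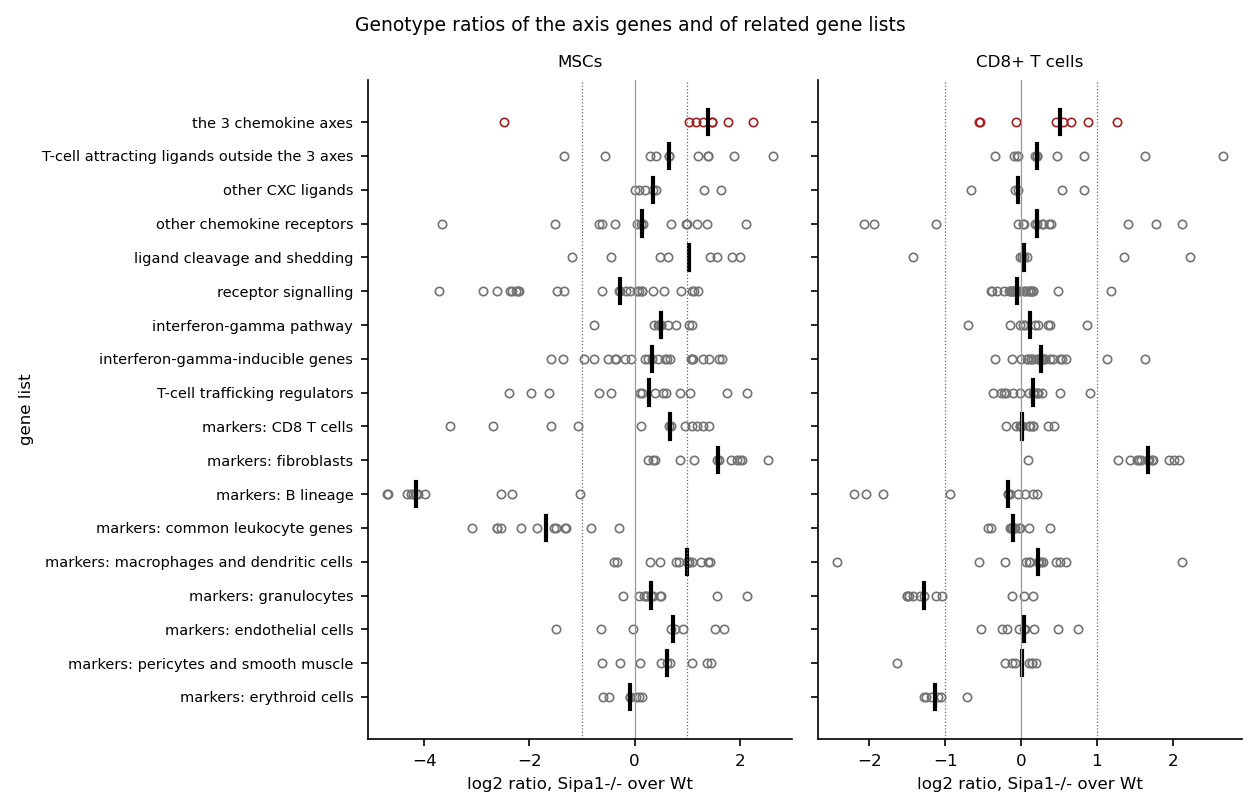
Log2 ratio of *Sipa1*-/- over Wt (horizontal axis) in MSCs at left and CD8+ T cells at right for the axis genes (red circles) and the genes of related lists (grey circles), 1 list per row (vertical axis), with a bar at the median and dotted lines at 2-fold. In MSCs the axis genes other than *Cxcr4* lie between 1.04 and 2.25, the B-lineage median is -4.16 and the fibroblast median is 1.59. In CD8+ T cells the fibroblast median is 1.68.

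Downstream of the receptors, 25 signaling genes were measured in both pairs. In MSCs 3 (12%) passed 2-fold upward and 10 (40%) downward, against 19.3% and 11.3% of all genes, with a median of -0.28. *Itgb1* (1.22), a beta integrin chain, and *Rgs16* (1.13) were highest. *Rasgrp2* (-3.72), an activator of Rap1 in blood cells, and *Pik3cg* (-2.88) were lowest. The list holds *Vav1* (-2.62) and *Itgb2* (-0.29), which are also among the common leukocyte genes. The part of leukocyte RNA in the MSC ratios of this list was not tested. Between the CD8+ T arrays 1 gene (4%, against 2.66% of all genes upward), *Rgs16* at 1.19, reached 2-fold and the median was -0.06. *Rgs16* is a negative regulator of signaling from G protein-coupled receptors.

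Transcription factors and adhesion receptors that set T cell trafficking stayed within 2-fold in CD8+ T cells for all 15 measured genes, with a median of 0.16. Of all genes 2.66% passed 2-fold upward and 1.4% downward there. *Prdm1* (0.91), a factor of effector and resident T cells, and the integrin chain *Itga1* (0.51) were highest, and *Cd69* (-0.37) and *Klf2* (-0.27) were lowest. *Tbx21*, which encodes T-bet, was at 0.10 and turned to -0.04 under median shift. In MSCs 3 of 14 (21.4%) passed 2-fold upward and 3 (21.4%) downward, against 19.3% and 11.3% of all genes. *Bhlhe40* (2.13) and *Id2* (1.77) were highest, *Cd69* (-2.39) and *Itga4* (-1.97) lowest, and *Klf2* was at 1.05.

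**Figure D5:**
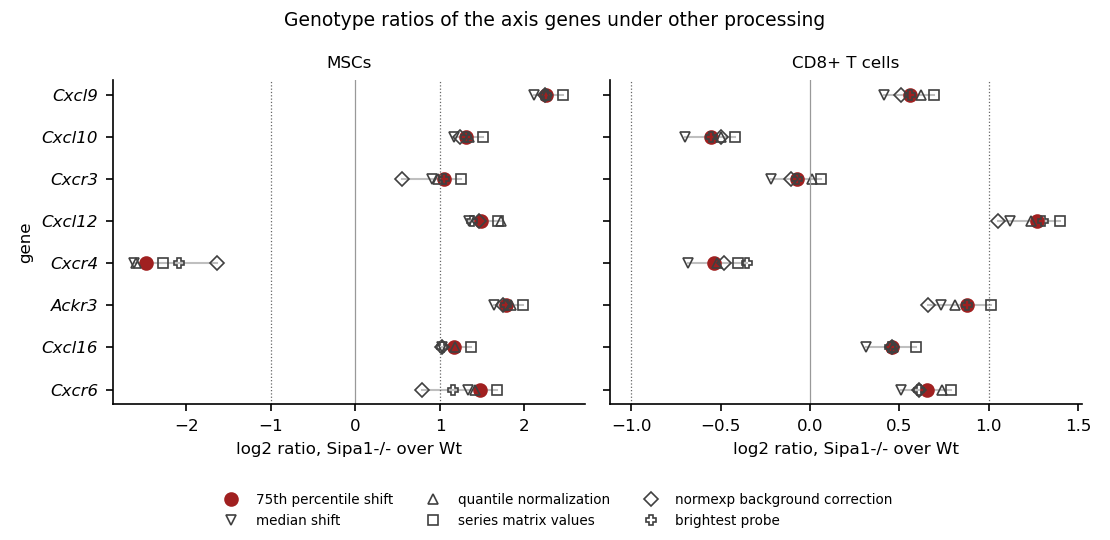
Log2 ratio of *Sipa1*-/- over Wt (horizontal axis) of each axis gene (vertical axis) in MSCs at left and CD8+ T cells at right, as red points for the 75th percentile shift and open symbols for 5 other ways of processing, joined by a grey line, with dotted lines at 2-fold. In MSCs no gene changed sign, *Cxcr3* was under 2-fold after normexp (0.55), median shift (0.90) and quantile normalization (0.97), and *Cxcr6* was under it after normexp (0.79).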

How the data were processed

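RNA of sorted MSCs and CD8+ T cells was labeled with Cy3 and hybridized to Agilent SurePrint G3 mouse arrays. The authors deposited scanner files whose spot intensity had been background-corrected and detrended by Agilent Feature Extraction (12.0.3.1 per the file headers, 9.1 per the labels' processing notes), with no scaling between arrays. Their series matrix holds the same intensity times 1 constant per array (0.941 to 1.34), chosen in a way not given in the sources used here.

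The log2 intensity of each spot had its array's 75th percentile over 59305 non-control spots subtracted. Spots of a probe, then probes of a gene, were averaged where the deposited flags for saturation, non-uniform spot and background, and signal above background passed on both arrays of a pair. Probe accessions were matched to a RefSeq table (GRCm38.p6), which named 57.6% of non-control spots. A gene counted as higher or lower at a log2 ratio of 1 (2-fold). The error of a ratio combines the software's error of each spot, about 0.20 for 1 probe, and among the 300 probes printed on 10 spots the median SD on an array was 0.04. With 1 array per group there was no test, and precision is limited by the number of arrays.

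The axis genes, the related gene lists and the marker lists were chosen with earlier results of these data known. Named are all axis genes, *Sipa1*, the 2 highest and 2 lowest ratios of a list, and genes set beforehand by role, such as *Ifng* and *Dpp4*. *Elane*, *Ctsg* and a few marker genes named for the T cell receptor complex or for leukocytes were picked after their values were seen. Alternatives were median shift, quantile normalization, series matrix values, normexp (offset 50), flags on 1 array or none, saturated spots kept and the brightest probe. Normexp used the median spot signal, since the scanner files held no mean signal. The gene step was tested on simulated data. Software versions were R 4.3.3, limma 3.58.1, matplotlib 3.10.9, pandas 2.3.3, numpy 2.4.6 and Python 3.11.15.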

Additional observations from a re-analysis of the deposited data

Results flagged for a closer look

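The genotype ratio had opposite signs in the sorts for the axis genes *Cxcl10* and *Cxcr3*, and it was past 2-fold in opposite directions for *Rgs5* of the marker lists. Other list genes also had opposite signs, with at least 1 of the ratios under 2-fold. The difference was not tested, since each sort and genotype has 1 array. For *Cxcl10* the log2 ratio was 1.31 in MSCs and -0.55 in CD8+ T cells, a difference of 1.86, and both signs held under all 8 alternatives. For *Cxcr3* it was 1.04 in MSCs and -0.07 in CD8+ T cells, a difference of 1.11, and the second value is smaller than its software error of 0.20 and turned positive under quantile normalization and the series matrix values. For *Rgs5*, a gene of pericytes, it was 1.39 in MSCs and -1.64 in CD8+ T cells, a difference of 3.02.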

How the results depend on the processing

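No paired analysis was possible because each group has 1 array. Leaving out an array was not possible for the same reason, and no spot was saturated, so keeping saturated spots changed nothing.

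Of 1696 ratios of single genes under the 8 alternatives, 1399 moved by no more than a software error and 297 by more. For the axis genes and *Sipa1* that error was the gene's own, and for the other genes it was the median error of the axis genes. The sign turned in 45 of the 1696 ratios, and in none that was at least 2-fold by the 75th percentile shift. For the axis genes in MSCs, 6 were at least 2-fold higher under median shift and under quantile normalization (*Cxcr3* fell short) and 5 under normexp (*Cxcr3* and *Cxcr6* fell short), against 7 as reported, and *Cxcr4* was at least 2-fold lower under all 8. For CD8+ T cells the series matrix values put 2 past 2-fold, against 1, and between the *Sipa1*-/- sorts they put 5 higher in MSCs, against 4, with *Cxcl16* added. Median shift moved the median ratio of all genes by -0.14 in MSCs, -0.15 in CD8+ T cells, -0.23 between the Wt sorts and -0.22 between the *Sipa1*-/- sorts, and the series matrix values moved it by 0.21, 0.13, 0.45 and 0.53.

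The median of the axis genes in MSCs, 1.39 as reported, was 1.60 with the series matrix values and 1.13 under normexp. The median of MSCs over CD8+ T cells, 0.03 in Wt tumors and 1.23 in *Sipa1*-/- tumors, was -0.20 and 1.01 under median shift and 0.49 and 1.76 with the series matrix values. Normexp left 1828 genes at least 2-fold higher in *Sipa1*-/- MSCs (2957 as reported), and 108 higher and 98 lower in CD8+ T cells (381 and 201). Flags asked of 1 array gave 684 higher and 371 lower in CD8+ T cells, and no flags gave 1060 and 633, since more dim genes entered. In the same way genes at least 2-fold higher in MSCs than in CD8+ T cells numbered 3898 and 4186 in Wt tumors (2457 as reported) and 4738 and 5017 in *Sipa1*-/- tumors (3130). With the series matrix values 1082 genes were at least 2-fold lower in Wt tumors (1821) and 1357 in *Sipa1*-/- tumors (2671). Of genes past 2-fold, 63% were higher in *Sipa1*-/- MSCs, and 74.1% with the series matrix values. The share was 65.5% in CD8+ T cells, and 52.5% under median shift, 52.4% under normexp and 76.3% with the series matrix values. Between sorts it was 57.4% in Wt and 54% in *Sipa1*-/- tumors, against 45.5% and 42.9% under median shift and 76.6% and 76.2% with the series matrix values. Probes near background limit the *Cxcr3*, *Cxcr4* and *Cxcr6* ratios in MSCs, the 3 that normexp moved beyond their software error.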
